A study of Homo sapiens with 32 samples.

Results

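RNA-Seq followed the proteasome genes of SK-N-BE(2) neuroblastoma cultures given cannabidiol (CBD). The genes were taken as every entry of the gene expression table named PSMA to PSMG followed by a number, which gave 48 of 22610 entries. Of these, 44 had a mean of at least 1 FPKM (fragments per kilobase of transcript and mapped read total, a level corrected for transcript length and sequencing depth) and were among the 12621 genes tested. The 4 below that limit were PSMA8, PSMB8, PSMB9 and PSMB11. By name, 19 genes belong to the core particle (PSMA and PSMB, 15 tested), 6 are the ATPases of the regulatory particle (PSMC), 14 are its other subunits and base chaperones (PSMD), and 9 are activators, an inhibitor and core assembly factors (PSME, PSMF and PSMG).

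The proteasome is the protease that degrades proteins tagged with ubiquitin. Its core particle is a barrel of stacked rings, in which PSMA proteins form the outer gated rings and PSMB proteins the inner rings that hold the proteolytic sites. The regulatory particle caps the barrel: its base carries the PSMC ATPases, which unfold the substrate, and its lid removes ubiquitin. Cells that are short of proteasome activity are known to raise most of these genes together through the transcription factor NFE2L1, while interferon exchanges 3 catalytic subunits for the inducible forms PSMB8, PSMB9 and PSMB10.

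SK-N-BE(2) is an established human neuroblastoma line with amplified MYCN. Cells received CBD at 20 μM or only its solvent, ethanol at 0.1%, as vehicle, and were harvested after 3, 6, 12 or 24 h, with 4 samples in each of the 8 groups and 32 samples in all. Both treatments therefore contain ethanol, and no genetic change separates the groups. Treatments were prepared in quadruplicate according to the methods, but neither these nor the labels say whether the replicates were separate cultures, so the p-values measure the spread between these samples, which may be technical.

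Marker genes were set against the labelled cell type. All 8 noradrenergic neuroblastoma markers were above 0 in every sample, with means over all samples of 1762 FPKM for MYCN, 498 for HAND2, 404 for PHOX2A and 239 for TH, and their summed level was 2787 to 2983 FPKM in vehicle at 3 h and 3350 to 3635 in CBD at 24 h. The blood cell list summed to no more than 0.868 FPKM in any sample. KRT5, KRT14 and SFN, which mark keratinocytes, did not exceed 0.149 FPKM, although KRT10 averaged 7.11. Of the 4 fibroblast markers, LUM averaged 56.5 FPKM and DCN 7.14, whereas COL1A1 averaged 1.5. The summed fibroblast list was 70.5 to 77.4 FPKM in vehicle at 3 h, 54.0 to 61.5 in vehicle at 24 h and 59.2 to 64.7 in CBD at 24 h, and the part of these markers in the results was not tested. These are bulk samples, in which fewer cells of a kind and less RNA per cell cannot be told apart. Read totals are not held in FPKM. Relative depth, read from the lowest steps of rare genes, spanned 1.51-fold between samples, and a term for it entered 1 of the alternative fits.

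Upstream sequence was available for 42 of the 48 genes. It is shown for 5 genes named in the results below, as the 250 bases before the RefSeq start in GRCh38.p14, written 5′ to 3′ along the gene. The antioxidant response element, TGACNNNGC, is the site bound by NFE2L1 and its relative NFE2L2. It is in capitals in PSMD12 at chr17:67366578-67366827 (minus strand), in PSMG1 at chr21:39183452-39183701 (minus strand) and in PSME1 at chr14:24135944-24136193 (plus strand), since these genes moved in different ways. PSMB10, the gene with the largest rise under CBD at 24 h, is shown at chr16:67936851-67937100 (minus strand) with GAAANNGAA, the core of interferon-stimulated elements, in capitals. PSME3, the gene with the largest fall, is shown at chr17:42833147-42833396 (plus strand) with the CCAAT box, which lies on the opposite strand and so reads ATTGG here.
PSMD12, lid subunit: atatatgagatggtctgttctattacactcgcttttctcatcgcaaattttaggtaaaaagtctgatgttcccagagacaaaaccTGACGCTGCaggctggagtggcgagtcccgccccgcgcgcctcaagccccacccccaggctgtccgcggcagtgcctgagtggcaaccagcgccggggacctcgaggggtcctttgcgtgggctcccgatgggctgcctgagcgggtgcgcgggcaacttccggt
PSMG1, core assembly chaperone: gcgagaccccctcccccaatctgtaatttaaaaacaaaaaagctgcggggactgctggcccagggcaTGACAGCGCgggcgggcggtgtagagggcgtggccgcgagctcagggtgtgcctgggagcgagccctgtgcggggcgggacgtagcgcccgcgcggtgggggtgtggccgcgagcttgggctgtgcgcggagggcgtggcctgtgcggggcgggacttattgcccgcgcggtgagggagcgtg
PSME1, activator: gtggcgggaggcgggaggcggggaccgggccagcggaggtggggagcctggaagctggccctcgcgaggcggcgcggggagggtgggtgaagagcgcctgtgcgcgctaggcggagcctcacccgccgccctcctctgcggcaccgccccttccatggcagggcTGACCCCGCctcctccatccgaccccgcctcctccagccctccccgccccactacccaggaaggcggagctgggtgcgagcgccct
PSMB10, inducible catalytic subunit: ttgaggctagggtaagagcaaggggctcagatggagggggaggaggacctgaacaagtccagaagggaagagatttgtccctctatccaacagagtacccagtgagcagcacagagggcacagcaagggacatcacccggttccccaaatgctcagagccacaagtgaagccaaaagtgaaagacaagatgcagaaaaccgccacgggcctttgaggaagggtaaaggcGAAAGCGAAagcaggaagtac
PSME3, nuclear activator: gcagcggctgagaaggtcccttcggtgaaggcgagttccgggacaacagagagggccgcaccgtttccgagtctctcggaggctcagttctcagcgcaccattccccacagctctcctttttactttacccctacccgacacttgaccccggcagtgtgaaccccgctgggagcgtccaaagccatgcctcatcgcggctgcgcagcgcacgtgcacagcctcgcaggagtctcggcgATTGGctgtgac

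With both strands searched, TGACNNNGC occurred before 13 of the 42 proteasome genes (31%) and before 13.2% of all 27305 genes with such a window. GGGCGG, the GC box, occurred before 61.9% of proteasome genes and 46.2% of all genes, CCAAT before 45.2% and 37%, CCGGAAG, an ETS site, before 26.2% and 10.2%, GAAANNGAA before 11.9% and 8.41%, and TATAAA before 11.9% and 13%. All but TATAAA were found at a higher share before proteasome genes than before all genes with a window. The latter were not limited to expressed genes, and whether the shares differ was not tested. The 5 proteasome genes with GAAANNGAA were PSMA4, PSMB4, PSMB10, PSME2 and PSMG4. These are matches of letters, not measured binding.

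In vehicle at 3 h the levels of the 44 genes ran from 11.9 ± 0.764 FPKM for PSMD9 to 339.7 ± 5.55 for PSMA7 (mean ± SD, n = 4). The highest were core genes: PSMA7 was followed by PSMB4 at 327 ± 9.72, PSMB3 at 325 ± 12.9 and PSMB1 at 234 ± 6.97 FPKM. PSMB4 and PSMB3 did not differ beyond their spread, while PSMB1 lay below both in every sample. Among the catalytic subunits, PSMB5 (chymotrypsin-like site) was at 217 ± 8.03, PSMB6 (caspase-like site) at 196 ± 9.47 and PSMB7 (trypsin-like site) at 106 ± 2.66 FPKM. The highest regulatory particle genes were the ATPase PSMC5 at 159 ± 3.02 and the ubiquitin receptor PSMD4 at 155 ± 2.07 FPKM. The lowest tested genes were chaperones and the core inhibitor, with PSMG4 at 17 ± 1.25, PSMD5 at 16.5 ± 0.670 and PSMF1 at 13.2 ± 0.632 FPKM.

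**Figure D1:**
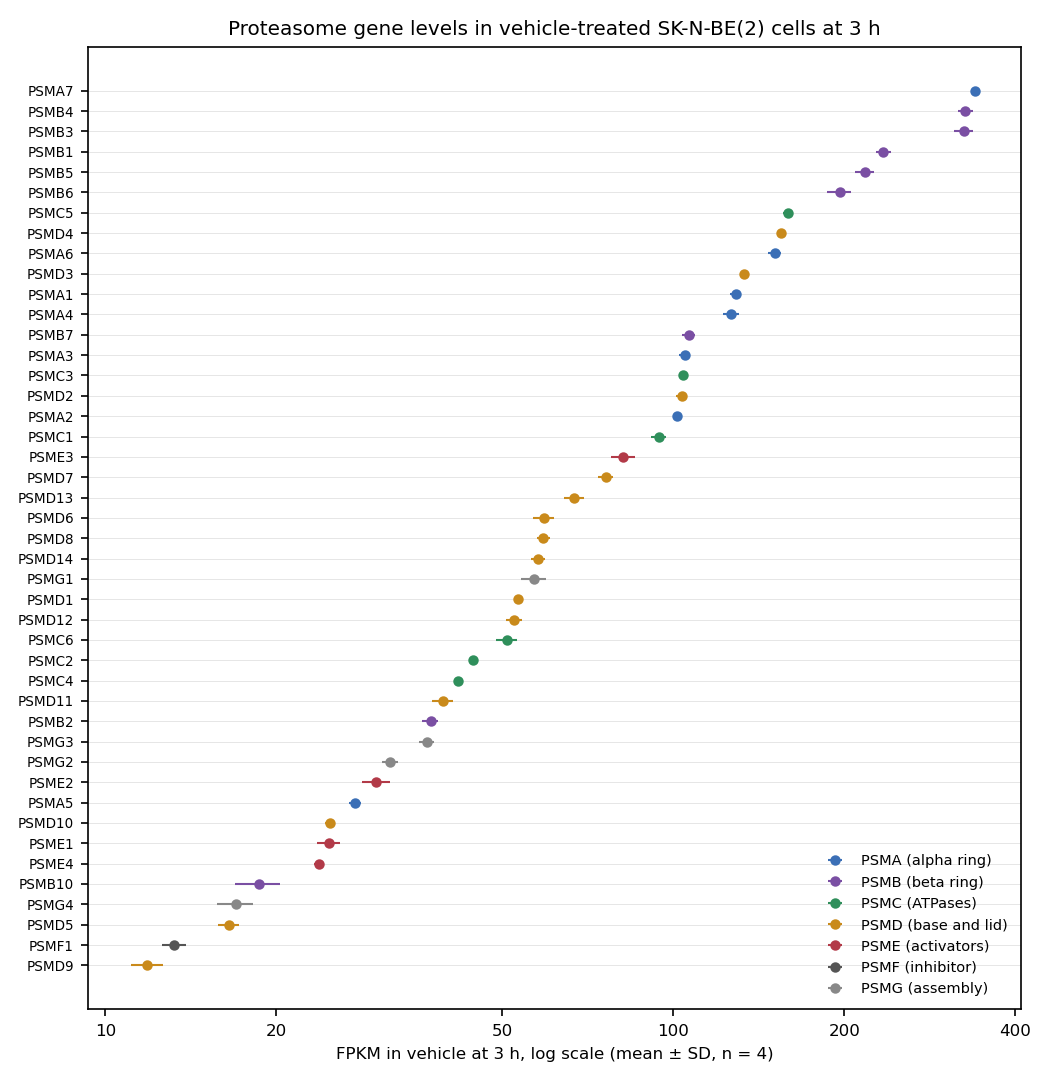
Mean FPKM (log axis, bars ± SD, n = 4) of the 44 tested proteasome genes in vehicle-treated SK-N-BE(2) cells at 3 h, ordered by level and coloured by gene family. The points run from 11.9 FPKM for PSMD9 to 339.7 for PSMA7, and the top 6 are all core genes.

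The inducible catalytic subunits were not expressed alike. PSMB10, which replaces PSMB7 in the immune form of the core, was present in every sample at 16.3 to 21.6 FPKM. PSMB8, which replaces PSMB5, was listed at 0.0761 to 0.470 FPKM, and its CBD and vehicle samples overlapped at every time. PSMB9, which replaces PSMB6, was listed at 0 in 24 of 32 samples and at no more than 0.0293 FPKM. PSMB11, the form of the thymus, was listed at 0 in 18 samples, and PSMA8, an alpha subunit of germ cells, in 31. The cells thus held transcripts of 1 of the 3 interferon-inducible subunits above 1 FPKM. PSMB10 shares 30.8% of its 50-base words with transcripts of an unnamed gene model that overlaps it, so part of its level could belong to that model.

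To follow the genes in time without CBD, vehicle at 24 h was compared with vehicle at 3 h, and nearly all proteasome genes were lower at 24 h. Of 44 genes, 38 fell (86.4%, limma, adjusted p under 0.01), against 31.1% of all genes tested, and 1 rose, PSME1, against 26.6% of all genes. The median difference was -0.25 on the log2(FPKM + 1) scale for proteasome genes and -0.01 for all genes. Under quantile normalization these medians were -0.18 and -0.02, and 31 proteasome genes fell. With a mean of at least 5 FPKM required, the median of all genes was -0.05. The FPKM summed over the 48 genes went from 4161 ± 81.0 at 3 h to 4149 ± 60.9 at 6 h, 4036 ± 99.8 at 12 h and 3483 ± 61.8 at 24 h (mean ± SD, n = 4). The 4 samples at 24 h, 3395 to 3540, all lay below the 4 at 3 h, 4109 to 4281. Time after vehicle was added and time in culture cannot be told apart.

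Every family took part. The fall was called for 14 of 15 core genes, with PSMB10 the exception, for 6 of 6 ATPases, for 13 of 14 PSMD genes, with PSMD4 the exception, and for 5 of 9 activator and assembly genes. The medians were -0.23, -0.25, -0.29 and -0.18 (log2). Of the 39 calls in either direction, 32 were kept under every alternative setting and every omission of a single sample, and the 7 that were not are PSMA2, PSMA4, PSMB4, PSMC1, PSMC6, PSMD7 and PSMD12.

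The catalytic subunits are examples. PSMB5 was at 226, 219.8, 217 and 207 FPKM in the 4 vehicle samples at 3 h and at 149, 162, 160.3 and 162 at 24 h. PSMB6 was at 209, 198, 189.7 and 188 FPKM at 3 h and at 135, 144, 141 and 145 at 24 h. The groups did not overlap for either gene, which fell by 0.45 (SE 0.035, adjusted p = 1.87e-11, limma) and by 0.47 (SE 0.031, adjusted p = 8.5e-13, limma) on the log2 scale. PSMB7 was at 109, 108, 107 and 103 FPKM at 3 h and at 89.7, 92.4, 96.2 and 92.6 at 24 h, again without overlap, and fell by 0.20 (adjusted p = 4.75e-06, limma).

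PSMD11, a lid subunit, was described in full after its values were seen, as were PSME1 and PSME2. PSMD11 was at 40.2, 40.7, 39.3 and 36.9 FPKM in vehicle at 3 h and at 25.0, 27.3, 27.4 and 27.1 at 24 h. Its groups did not overlap and the fall was 0.54 (SE 0.040, adjusted p = 6.79e-12, limma). PSMD2, a scaffold of the base, fell from 101 to 106 FPKM at 3 h to 71.7 to 76.8 at 24 h, by 0.46 (adjusted p = 2.78e-15, limma).

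The activators moved apart. PSME1 and PSME2 encode the partner subunits of an activator ring that is linked to antigen processing, and they lie close together on chromosome 14 (GRCh37, PSME1 at chr14:24605372-24608176 and PSME2 at chr14:24612571-24616779). PSME3 forms a related ring in the nucleus. PSME1 was at 24.3, 23.5, 25.0 and 26.2 FPKM in vehicle at 3 h. After 6 h it was at 29.7, 28.6, 29.2 and 30.8 FPKM, after 12 h it had reached 31.6, 33.7, 34.6 and 34.0, and the 24 h samples held 42.7, 38.9, 40.7 and 41.6. Each time point lay above the one before without overlap. From 3 to 24 h PSME1 rose by 0.71 on the log2 scale (SE 0.051, 63.0% in FPKM + 1, adjusted p = 5.29e-12, limma), a call kept under every alternative and omission.

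PSME2 did not follow its partner. It was at 30.0, 28.4, 29.1 and 32.3 FPKM in vehicle at 3 h and at 29.2, 29.3, 28.9 and 30.5 at 24 h. The groups overlapped, with a difference of -0.02 (SE 0.044, adjusted p = 0.704, limma). PSME3 was at 85.9, 82.7, 81.2 and 76.4 FPKM at 3 h and at 49.5, 53.7, 53.1 and 52.0 at 24 h, so that all samples at 24 h were below all at 3 h. It fell by 0.64 (SE 0.037, adjusted p = 6.69e-14, limma), the largest fall of the 44 genes. In the CBD samples PSME1 showed a like course: the 4 samples at 24 h were at 39.0, 43.3, 41.2 and 43.6 FPKM, and CBD differed from vehicle by 0.03 at 24 h (95% interval of the log2 difference -0.08 to 0.13, adjusted p = 0.704, limma).

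**Figure D2:**
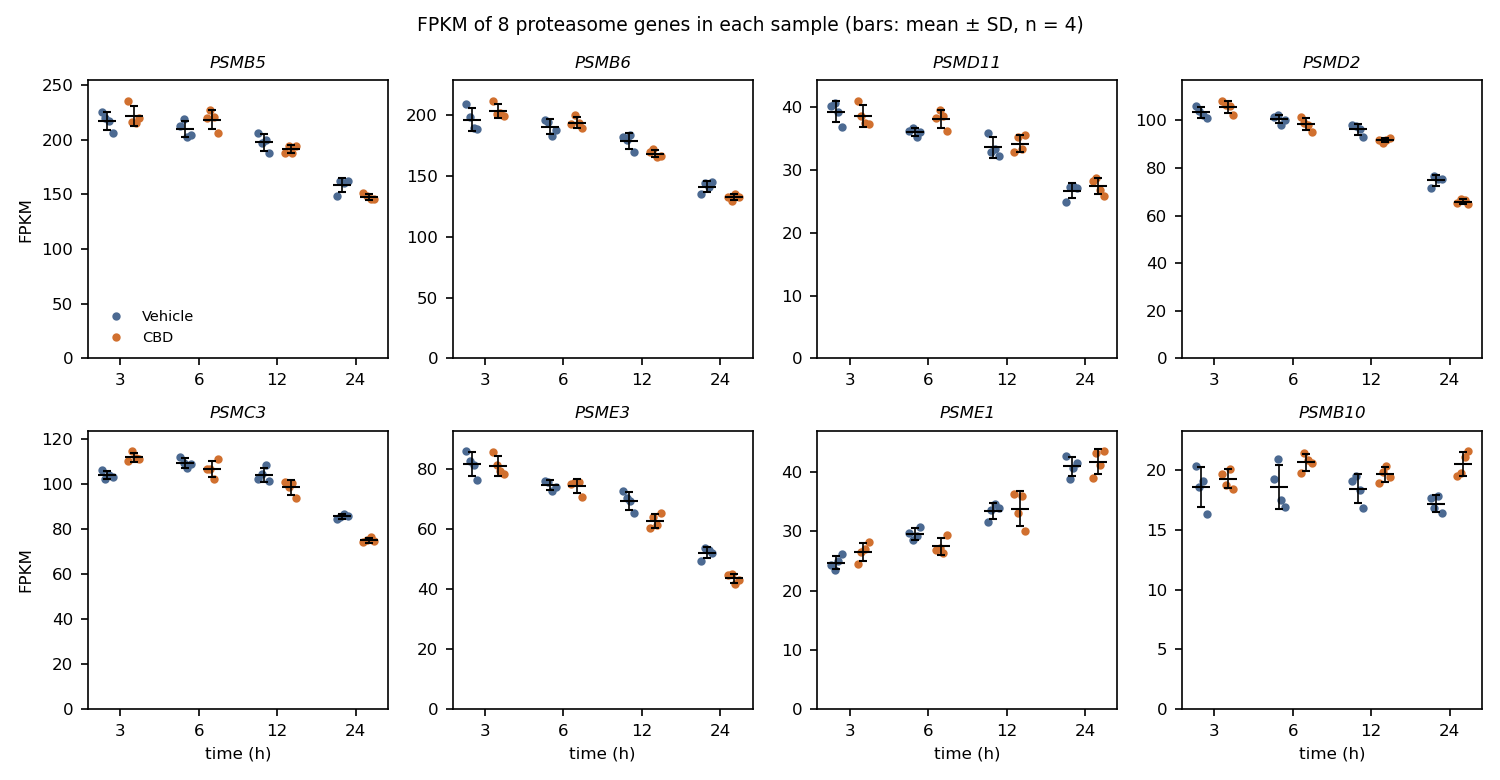
FPKM in each of the 32 samples for 8 proteasome genes at 3, 6, 12 and 24 h in vehicle and CBD (points: samples, black bars: mean ± SD, n = 4, axes start at 0). PSMB5, PSMB6, PSMD11, PSMD2, PSMC3 and PSME3 are lower at 24 h than at 3 h, PSME1 is higher, and PSMB10 lies apart between the treatments at 24 h.

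To ask what CBD added, CBD was compared with vehicle at each time. At 3 h, 1 of 44 genes was called (2.27%), in the direction of higher expression, against 1.18% of all genes. This was PSMC3, an ATPase of the base. PSMC3 was at 106, 102, 104 and 103 FPKM in vehicle and at 110.2, 115, 112 and 111 in CBD, without overlap. The difference was 0.10 (SE 0.024, adjusted p = 0.00959, limma). The call was lost under 5 of 11 alternatives, which gave adjusted p-values of 0.0064 to 0.0584. It was also lost in 21 of 32 omissions of a sample (adjusted p up to 0.045), among them vehicle replicates 2, 3 and 4 and CBD replicates 2, 3 and 4 of 3 h.

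The proteasome genes as a whole were slightly on the higher side at 3 h, where 36 of 44 had a positive difference and the median was 0.05 (all genes 0.01, log2). No member of the core was called, although 14 of the 15 core genes tested had a positive difference. The summed FPKM was 4349 ± 68.3 in CBD and 4161 ± 81.0 in vehicle (mean ± SD, n = 4), and the groups overlapped, since the lowest CBD sample was at 4263 and the highest vehicle sample at 4281. Under quantile normalization the median of the 44 genes was 0.02.

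At 6 h limma called 0 of 44 genes, against 10.2% of all genes. At an unadjusted p under 0.05 there were 6 genes, 5 of them higher in CBD, and with a replicate block 1 gene was called. The median difference was 0.02, and the summed FPKM was 4201 ± 80.5 in CBD and 4149 ± 60.9 in vehicle. That median was 0.0055 with relative depth as a term. Single samples of 6 h also moved it, to 0.0027 without vehicle replicate 2, 0.0016 without vehicle replicate 4, 0.0032 without CBD replicate 1 and 0.0028 without CBD replicate 2.

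At 12 h, 3 of 44 genes were called (6.82%), all lower in CBD, against 11.2% of all genes. They were PSME3, the base chaperone PSMD10 and the core chaperone PSMG2. PSME3 was at 72.8, 70.3, 69.3 and 65.5 FPKM in vehicle and at 60.5, 64.0, 61.2 and 65.4 in CBD. Its groups just failed to overlap, and it fell by 0.14 (SE 0.037, adjusted p = 0.004, limma), but the call was lost under 3 alternatives (adjusted p 0.0037 to 0.0276) and without vehicle replicate 1, 2 or 3 or CBD replicate 1 or 3 of that time (adjusted p up to 0.0228).

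PSMD10 was at 24.7, 24.3, 23 and 22.7 FPKM in vehicle at 12 h and at 21.1, 22.7, 20.4 and 22.8 in CBD, so the groups overlapped, and it fell by 0.12 (adjusted p = 0.00931, limma). That call was lost under 5 alternatives (adjusted p 0.0047 to 0.0924) and in 18 of the 32 omissions (up to 0.0553), among them vehicle replicates 1 and 2 and CBD replicates 1 and 3 of 12 h. PSMG2 fell by 0.12 (adjusted p = 0.00392, limma), a call lost under 2 alternatives (0.0027 to 0.0615) and without vehicle replicate 1 or 3 or CBD replicate 1 or 4 of 12 h (up to 0.0265). None of the 3 calls at 12 h held under all settings, and over the 44 genes the median was -0.04 (all genes -0.0043), or -0.03 under quantile normalization.

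At 24 h, 16 of 44 proteasome genes were called (36.4%), against 42.1% of all genes. Of these, 14 were lower in CBD (31.8%, against 21.3% of all genes) and 2 were higher, against 20.8% of all genes. The share called in either direction was thus below that of all genes, and the calls lay mostly on the lower side. The differences were small, between -0.25 and 0.24 (log2), with a median of -0.07 (-0.04 under quantile normalization), and 36 of 44 were negative. The summed FPKM was 3306 ± 31.8 in CBD, from 3267 to 3339, and 3483 ± 61.8 in vehicle, from 3395 to 3540, so the groups did not overlap.

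**Figure D3:**
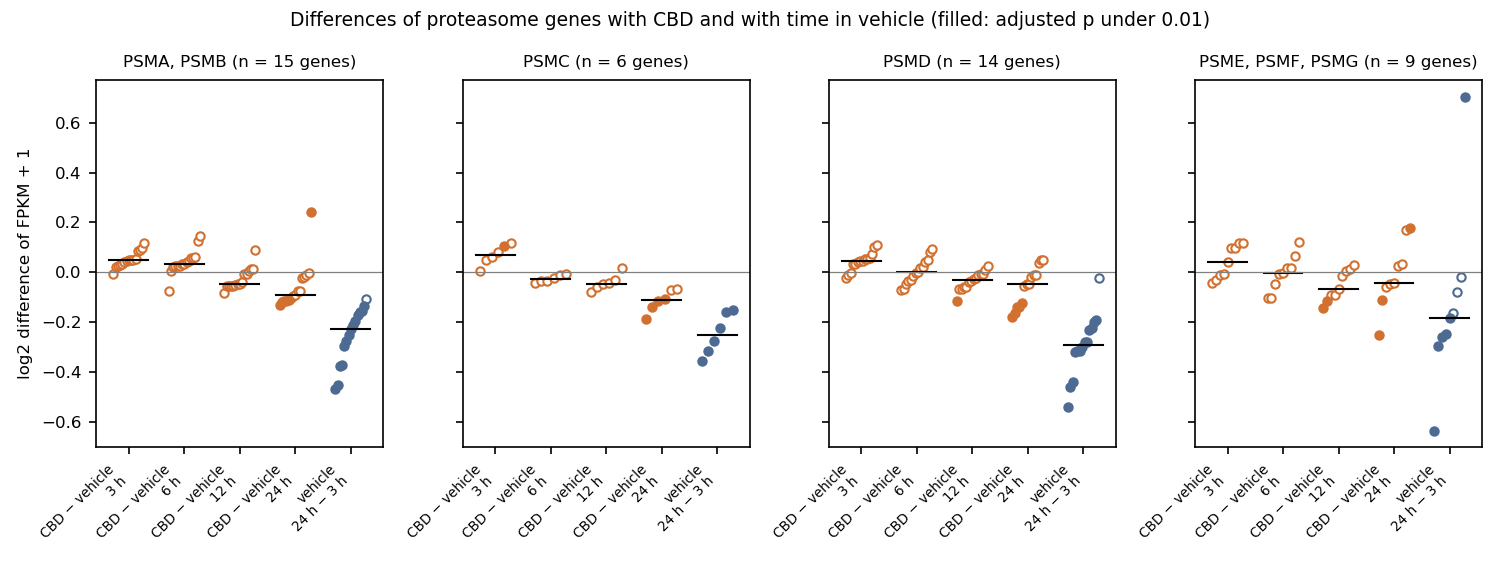
Differences in log2(FPKM + 1) of the 44 tested proteasome genes for CBD minus vehicle at 4 times (orange) and for vehicle at 24 h minus 3 h (blue), by gene family. Each point is a gene, filled where the adjusted p was under 0.01, and black lines are medians: the blue points are mostly filled and below 0, while the orange ones stay between -0.25 and 0.24.

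By role, the base of the regulatory particle held 7 of the 14 falls. All 3 of its scaffold and receptor subunits among the PSMD genes fell: PSMD2 by 0.18, PSMD1 by 0.14 and PSMD4 by 0.13. So did 4 of the 6 ATPases, PSMC3 by 0.19, PSMC4 by 0.14, PSMC2 by 0.11 and PSMC5 by 0.11. Of these ATPases, PSMC3 kept its call under every setting. PSMC4 lost it with only the samples of the comparison (adjusted p = 0.0154, limma) and PSMC5 under quantile normalization (adjusted p = 0.0189, limma). PSMC2 lost it under 4 alternatives (0.00051 to 0.0252) and without vehicle replicate 2, 3 or 4 or CBD replicate 1 or 2 of 24 h (up to 0.0264). None of the 8 lid subunits was called by limma at 24 h, where 21.3% of all genes were called lower. Of the 8, 7 had a negative difference and 1 an unadjusted p under 0.05 (PSMD12, adjusted p = 0.017, limma), with a median of -0.03. Whether base and lid differ was not tested. In the core, PSMA3, PSMA6 and PSMA7 of the 7 alpha subunits and PSMB1 of the 4 structural beta subunits fell, by 0.11 to 0.13. The call of PSMA3 was lost under 4 alternatives (0.0015 to 0.0903) and in 13 of the 32 omissions (up to 0.0542), among them vehicle replicates 2, 3 and 4 and CBD replicates 2 and 3 of 24 h. That of PSMA7 was lost with only the samples of the comparison (0.0188) and without vehicle replicate 4 or CBD replicate 1 or 2 of 24 h (up to 0.0154), and that of PSMB1 under 2 alternatives (up to 0.0204) and without vehicle replicate 4 or CBD replicate 2 (up to 0.0215). The inhibitor PSMF1 fell by 0.11, a call lost without vehicle replicate 2 or 3 or CBD replicate 4 of 24 h (up to 0.0175). The remaining 2 falls were the base chaperone PSMD10, by 0.16, and the activator PSME3, by 0.25.

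PSME3 had the largest fall under CBD. It was at 49.5, 53.7, 53.1 and 52.0 FPKM in vehicle at 24 h and at 44.5, 44.9, 41.8 and 43.1 in CBD. All CBD samples were below all vehicle samples, and the fall was 0.25 (SE 0.037, 16.0% in FPKM + 1, adjusted p = 2.48e-06, limma). PSMC3 was at 84.6, 85.4, 86.9 and 85.9 FPKM in vehicle and at 74.1, 75.0, 76.7 and 74.6 in CBD. Its groups did not overlap, and the fall was 0.19 (SE 0.024, adjusted p = 3.81e-07, limma).

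PSMD2 was at 71.7, 76.8, 75.4 and 75.3 FPKM in vehicle at 24 h and at 65.4, 66.9, 66.5 and 64.8 in CBD, without overlap, a fall of 0.18 (SE 0.023, adjusted p = 2.29e-07, limma). PSMD10 was at 19.3, 20.1, 19.7 and 21.0 FPKM in vehicle and at 17.6, 18.2, 17.1 and 18.3 in CBD. These groups did not overlap at 24 h either, and the fall was 0.16 (SE 0.034, adjusted p = 0.000215, limma). The 4 calls were kept under every alternative and every omission, as were those of PSMA6, PSMD1, PSMD4, PSMB10 and PSMG1, which makes 9 of 16.

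The 2 rises were those of an inducible catalytic subunit and of a core assembly chaperone. PSMB10 was at 17.7, 16.8, 17.8 and 16.4 FPKM in vehicle at 24 h and at 19.5, 19.8, 21.1 and 21.6 in CBD. All CBD samples were higher, by 0.24 (SE 0.058, 18.2% in FPKM + 1, adjusted p = 0.00103, limma). PSMG1, which with PSMG2 starts the assembly of the alpha ring, was at 47.2, 47.5, 46.7 and 49.3 FPKM in vehicle and at 54.4, 53.6, 54.3 and 53.6 in CBD. Its groups did not overlap, with a rise of 0.18 (SE 0.034, adjusted p = 9.53e-05, limma). PSMG2 differed by 0.03 (adjusted p = 0.37, limma) at that time, so the partner was not called.

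The constitutive catalytic subunits were not called at 24 h. PSMB5 was at 149, 162, 160.3 and 162 FPKM in vehicle and at 152, 148, 146 and 146 in CBD, which overlapped, with a difference of -0.10 (adjusted p = 0.0238, limma). PSMB6 was at 135, 144, 141 and 145 FPKM in vehicle and at 132, 129, 135 and 133 in CBD, a difference of -0.09 (adjusted p = 0.0138, limma). PSMB7 was at 89.7, 92.4, 96.2 and 92.6 FPKM in vehicle and at 90.9, 89.5, 86.8 and 85.0 in CBD, a difference of -0.07 (adjusted p = 0.0529, limma). All 3 had unadjusted p-values under 0.05 and the same sign, and all 3 overlapped between treatments. PSMD11, with its large fall in vehicle, differed by 0.04 between treatments (95% interval of the log2 difference -0.05 to 0.12).

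The effect of CBD at 24 h was then compared with its effect at 3 h in the same fit. Of 44 genes, 12 had a lower effect at 24 h (27.3%), against 14.3% of all genes. By this test 0 had a higher one, against 12.9% of all genes, although 2 were higher at an unadjusted p under 0.05. In either direction the share called was 27.3%, close to the 27.2% of all genes. The median change of effect was -0.12 (all genes -0.01, log2), or -0.07 under quantile normalization. With that normalization 6 of the 12 were called, and PSMG1 was called in the other direction (adjusted p = 0.000946, limma), against 0.0286 here. PSMC3 changed most, from 0.10 at 3 h to -0.19 at 24 h (change -0.29, SE 0.035, adjusted p = 2.1e-07, limma). It was followed by PSMD12 at -0.25, PSME3 at -0.24, PSMA7 at -0.23 and PSMD2 at -0.21, and the other 7 were PSMA6, PSMB1, PSMB3, PSMC4, PSMC5, PSMD1 and PSMD4. The calls of PSMA7, PSMC3, PSMC4, PSMD2, PSMD4 and PSME3 held under every alternative and omission.

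Seen against vehicle at 3 h, the median of the 44 genes in vehicle was -0.02, -0.05 and -0.25 after 6, 12 and 24 h. In CBD it was 0.05, -0.0017, -0.09 and -0.30 after 3, 6, 12 and 24 h. At 24 h, 43 of 44 genes in vehicle and 41 in CBD were below vehicle at 3 h. The median of the ATPases at 24 h was -0.25 in vehicle and -0.38 in CBD, and that of the core genes -0.23 and -0.30. Both courses share the vehicle samples at 3 h as their base. In these medians the gap between the treatments at 24 h was smaller than the change from 3 h within either.

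**Figure D4:**
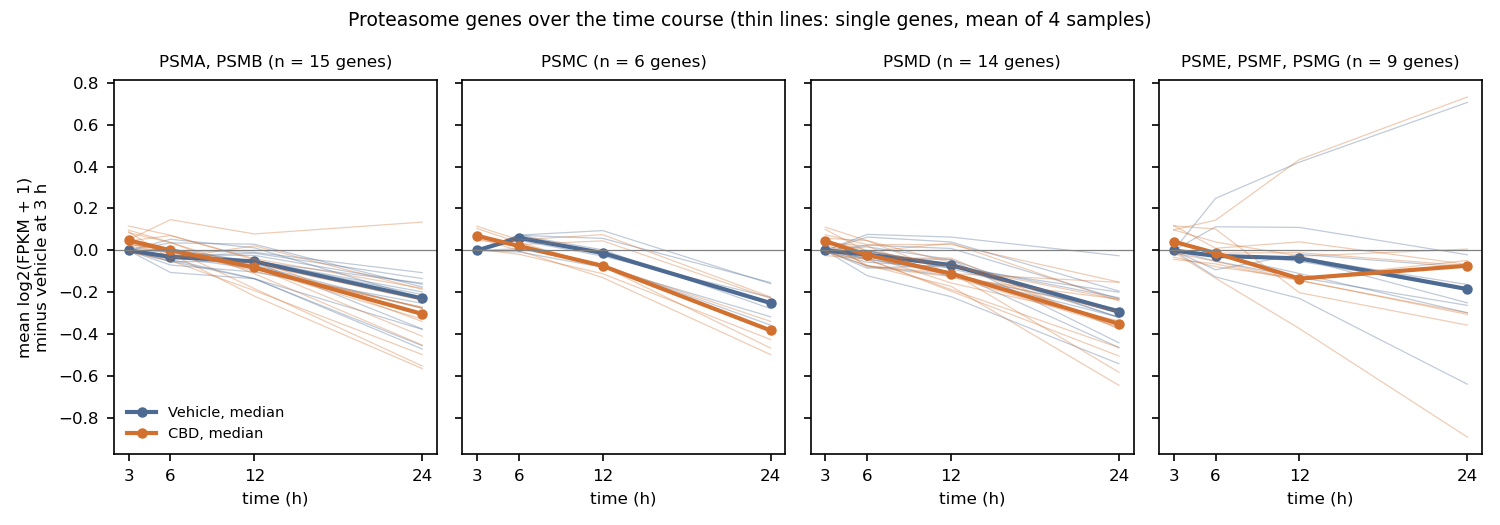
Mean log2(FPKM + 1) relative to vehicle at 3 h over 3, 6, 12 and 24 h by gene family, with thin lines for single genes (mean of 4 samples) and thick lines for the median in vehicle (blue) and CBD (orange). The core, ATPase and PSMD medians end at -0.23 to -0.29 in vehicle and at -0.30 to -0.38 in CBD, and PSME1 is the pair of thin lines near 0.7.

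The calls were also set beside the antioxidant response element. At 24 h, 2 of the 12 tested genes with TGACNNNGC in the window were called between CBD and vehicle, PSMG1 higher and PSMC5 lower, and 11 of the 26 without it, against 42.1% of all genes. Their medians were -0.01 and -0.08 (log2). PSMC5 has more than 1 annotated start, and the match lies before 1 of them. In vehicle from 3 to 24 h, 9 of the 12 and 24 of the 26 fell, against 31.1% of all genes. These counts are given as a description, without a test.

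Companion genes of the pathway did not move as a unit. Of 9 accessory and assembly factors, 3 rose and 3 fell at 24 h, with a median of -0.05 (log2), where 20.8% of all genes rose and 21.3% fell with a median of -0.0032. POMP, which matures the core, fell by 0.17 (adjusted p = 0.00047, limma) and the ligase UBE3C, which binds the proteasome, by 0.17, while KIAA0368, a proteasome adaptor, rose by 0.21 (adjusted p = 9.11e-09, limma). Among 5 genes of NFE2L1 and its processing, 1 rose and 2 fell (median -0.08), beside the same 20.8% and 21.3% of all genes. NFE2L1 itself differed by -0.02 (SE 0.034, adjusted p = 0.68, limma). NGLY1, the glycanase that edits the NFE2L1 protein, rose by 0.22, VCP, which extracts it from the membrane, fell by 0.08, a call lost under quantile normalization (alternatives gave 2.2e-05 to 0.0298), and the ligase SYVN1 fell by 0.15, a call lost under 3 alternatives (0.0037 to 0.0149) and without vehicle replicate 2, 3 or 4 or CBD replicate 1, 3 or 4 of 24 h (up to 0.0332).

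Of 9 genes for ubiquitin, its activation and its shuttles, 2 fell at 24 h and 0 rose by limma, with 1 higher at an unadjusted p under 0.05 and a median of -0.05. The share that fell was close to the 21.3% of all genes. UBA1, the main ubiquitin-activating enzyme, fell by 0.15 (adjusted p = 0.000103, limma). UBQLN2, a shuttle that carries substrates to the proteasome, fell by 0.10, a call lost under 2 alternatives (0.00098 to 0.0198) and without vehicle replicate 2, 3 or 4 or CBD replicate 1, 3 or 4 of 24 h (up to 0.0261). The polyubiquitin gene UBB was not called at 3 h (0.11, adjusted p = 0.158, limma) or at 24 h (-0.07, adjusted p = 0.225, limma).

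Of 7 antigen processing genes listed, TAP1, IRF1 and NLRC5 were below 1 FPKM and 4 were tested, of which 3 rose at 24 h, against 20.8% of all genes, with a median of 0.13 (log2). These were the peptide transporter TAP2 by 0.22 (adjusted p = 0.000764, limma), TAPBP, the chaperone tapasin, by 0.16, and the peptidase ERAP1 by 0.10. The call of TAPBP was lost under median-ratio scaling (alternatives gave 0.0002 to 0.0133) and without vehicle replicate 2, 3 or 4 or CBD replicate 1 of 24 h (up to 0.0258). That of ERAP1 was lost under 2 alternatives (0.0024 to 0.0337) and without vehicle replicate 4 or CBD replicate 1 or 3 of 24 h (up to 0.019). At 3, 6 and 12 h limma called 0 of the 4, and at an unadjusted p under 0.05 there were 0, 1 and 0. B2M, the other tested gene, was higher at 24 h at an unadjusted p under 0.05 but was not called. Over all samples TAP2, TAPBP and ERAP1 averaged only 3.95, 3.51 and 3.83 FPKM, and B2M 194. PSMB10, the core gene of the same process, was also called higher, while PSMB8, PSMB9 and TAP1 stayed below the limit for testing. PSME1 and PSME2, the activator subunits linked to antigen processing, were tested and not called at 24 h. For both, the CBD and vehicle samples overlapped at that time. Whether these genes moved together was not tested.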

How the data were processed

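SK-N-BE(2) cells in 8 groups of 4 samples were grouped by their labels. Polyadenylated RNA was read as single reads of 50 bases. According to the methods and the submitters' processing notes, the authors trimmed reads with Trimmomatic version 0.36, aligned them to hg19 with Tophat as stranded reads with up to 2 locations, and computed FPKM with Cufflinks. The authors deposited FPKM per gene and sample, not scaled further as far as stated, and a table of Cuffdiff comparisons (log2 fold change and q-value per time), which was not used. A read placed at 2 locations can move between a gene and its copy: 9 of the 48 genes share over 10% of their 50-base words with other genes, most of all PSMC1 (85.2%). Total counts are unknown, so no counting intervals are given.

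FPKM were transformed to log2(FPKM + 1), which understates changes of low genes, and the 12621 genes with a mean of at least 1 FPKM were fitted in 1 model of 8 group means with limma version 3.58.1 (eBayes with trend, R version 4.3.3). Benjamini-Hochberg adjustment was made within each of 6 comparisons, with calls at 0.01. The script was tested on simulated data. Genes described per sample were the catalytic subunits, the largest rises (only 2 were called) and 3 largest falls at 24 h, and the genes called at most times (PSMC3, PSMD10, PSME3); companion lists gave their 3 called genes of largest change plus defining genes. PSMD1, PSMD4 and PSMG2 are named as members of short counts. Some companion genes are not reported here and are left out of the list counts. The genes, lists and tests were chosen with earlier results of these data known. Alternatives were 11 settings (0.1 or 5 added before the logarithm, no filter, a mean of at least 5 FPKM, median-ratio scaling, quantile normalization, only the samples of the comparison, a replicate block, no trend, a threshold of 0.05 and relative depth as a term) and leaving out each of 32 samples. Shared words used GENCODE on GRCh37. No columns of identical values were found.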

Additional observations from a re-analysis of the deposited data

Results flagged for a closer look

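In groups of 4 samples, 11 of 200 tests over 25 named genes found 1 sample far from the other 3, and chance alone gives about 1 in 20. PSMB5 was low in vehicle replicate 1 at 24 h (148.8 FPKM, the others 160.3 to 162.4), and so was PSMD11 (24.97, the others 27.14 to 27.39). PSME3 was low in CBD replicate 4 at 6 h (70.76, the others 75.13 to 75.73), and PSME2 in CBD replicate 1 at 3 h (29.22, the others 33.39 to 34.16). NFE2L1 was high in vehicle replicate 2 at 6 h (45.63 FPKM), UBE3C in vehicle replicate 1 at 12 h (27.42), SYVN1 in CBD replicate 4 at 12 h (12.06) and CBD replicate 2 at 24 h (10.45), and TAPBP in CBD replicate 1 at 24 h (3.961). POMP was low in CBD replicate 2 at 24 h (23.36) and VCP in CBD replicate 1 at 24 h (72.47).

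In the test of the change of effect from 3 h to 24 h (limma), 12 of 44 proteasome genes passed (27.3%), against 27.2% of all genes in either direction. The effect at 24 h minus that at 3 h, on the log2 scale, was -0.1658 for PSMA6, -0.2268 for PSMA7, -0.2017 for PSMB1, -0.1735 for PSMB3, -0.2922 for PSMC3, -0.2005 for PSMC4, -0.1943 for PSMC5, -0.1752 for PSMD1, -0.2499 for PSMD12, -0.2122 for PSMD2, -0.2008 for PSMD4 and -0.2439 for PSME3.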

How the results depend on the processing

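The number of proteasome genes called between vehicle at 24 h and 3 h was 36 to 40 without single samples and stayed within 1.5 times 39 under all 11 alternatives. Between CBD and vehicle at 24 h it was 12 to 19 without single samples and 24 under median-ratio scaling, which put 40.7% of all calls on the higher side in place of 49.4%. At 3 h (1 gene) the count was 0 without a filter, under quantile normalization, with only the samples of the comparison, without the intensity trend and with relative depth as a term, 3 at a threshold of 0.05, and 0 to 4 without single samples, with 4 without CBD replicate 1 of 3 h. At 6 h (0 genes) it was 2 at a threshold of 0.05 and 0 to 1 without single samples, with 1 without CBD replicate 4 of 6 h, CBD replicate 1 of 3 h, vehicle replicate 2 of 24 h or CBD replicate 2 of 24 h. At 12 h (3 genes) it was 1 under quantile normalization, 0 with only the samples of the comparison or relative depth as a term, and 7 at a threshold of 0.05. It ranged from 0 to 5 without single samples, with 0 without vehicle or CBD replicate 1 of 12 h, 1 without vehicle replicate 2 or 3 or CBD replicate 3, and 5 without vehicle replicate 4. The 12 changes of effect between 3 and 24 h became 7 under quantile normalization (6 lower and 1 higher) and 23 at a threshold of 0.05, and 11 to 19 without single samples, with 19 without CBD replicate 1 of 3 h. No called gene changed sign under these settings, and beyond these alternatives the cause of a change was not tested.

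With a replicate block, 2 genes were called at 3 h and 1 at 6 h, and the counts at 12 h, 24 h, between the effects and over time in vehicle were 3, 16, 15 and 39. Samples with the same number did not deviate together (correlations from -0.076 to 0.094 over 16 pairs, none above 0.1), so the numbers were not taken as pairs. Depth is not recorded in FPKM, which limits statements on PSMB8, PSMB9, PSMB11 and PSMA8.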
